A study of Mus musculus with 11 samples.

Results

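The 7 genes described here encode the dopamine receptors (Drd1, Drd2, Drd3, Drd4 and Drd5), the trace amine receptor Taar1 and DARPP-32 (gene Ppp1r1b), a phosphatase inhibitor that relays dopamine signals inside cells. They were chosen by symbol, and every CpG island and 5000 bp window overlapping the listed gene or its promoter was taken with them. Of the 25802 genes in the deposited tables, rows were found for 6 of these 7, with 39 regions in all: 6 promoters of 24391, 6 genes, 6 CpG islands of 14841 and 21 windows of 259716. Drd1 stands there under its older symbol Drd1a. Taar1 has no promoter, gene or window in these tables and was not analysed here.

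DNA methylation was measured in whole pancreas of wild type C57BL/6N mice at birth (postnatal day 0) by reduced representation bisulfite sequencing, which reads CpGs near the cut sites of restriction enzymes, here MspI (CCGG) and TaqI (TCGA). Pregnant dams had received amphetamine (10 mg/kg) or saline on embryonic days 14.5, 15.5 and 16.5. The amphetamine group held 5 offspring (3 females and 2 males) and the saline group 6 (3 females and 3 males), so that the second comparison, 6 females against 5 males, used the same 11 mice. The labels do not tie mice to dams, so littermates may be among the replicates, and in bulk tissue a change in cell makeup and a change within cells cannot be told apart.

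Dopamine receptors are G protein-coupled receptors in 2 classes. Drd1 and Drd5 encode the D1 class, which couples to stimulatory G proteins and raises cyclic AMP, while Drd2, Drd3 and Drd4 encode the D2 class, which couples to inhibitory G proteins and lowers it. Protein kinase A phosphorylates DARPP-32, turning it into an inhibitor of protein phosphatase 1. Amphetamine releases dopamine and other monoamines through their transporters and is itself an agonist of Taar1. In the endocrine pancreas, dopamine is known to restrain insulin secretion, an effect linked to D2-class receptors in other work. The authors of these data found no dopamine receptor transcripts in human fetal pancreas. They also report that rodent beta cells lack the vesicular monoamine transporter. CpG-dense promoters are usually unmethylated whether or not the gene is active, whereas CpG-poor promoters and gene bodies are usually methylated.

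The promoters differed widely in CpG density, which the sequences just upstream of the starts make visible. Each stretch below is 200 bases of GRCm38, ends next to the first annotated exon upstream of or at the listed start, contains no annotated exon, is written 5′ to 3′ on the gene's strand, and has every CG dinucleotide in capitals. Drd3 (chr16:43762008-43762207, plus strand) is shown for the CpG-poor listed promoter, with 1 CG in this stretch. This Drd3 stretch lies in an intron of the longer annotated transcript of the gene. Drd1 (chr13:54055706-54055905, minus strand), with 11 CG, is shown for the promoter with the widest spread among amphetamine-treated mice relative to saline, Drd4 (chr7:141291806-141292005, plus strand) for the most methylated of the promoters that carry an island, and Ppp1r1b (chr11:98348204-98348403, plus strand) for the gene whose groups did not overlap.
Drd3: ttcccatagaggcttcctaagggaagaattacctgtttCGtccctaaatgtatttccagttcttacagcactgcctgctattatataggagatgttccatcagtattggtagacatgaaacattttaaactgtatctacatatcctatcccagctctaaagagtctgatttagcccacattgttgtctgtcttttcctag
Drd1: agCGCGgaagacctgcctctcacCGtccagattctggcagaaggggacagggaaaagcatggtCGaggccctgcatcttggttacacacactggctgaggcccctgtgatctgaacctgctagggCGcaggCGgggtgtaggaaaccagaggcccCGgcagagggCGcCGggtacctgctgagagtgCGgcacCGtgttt
Drd4: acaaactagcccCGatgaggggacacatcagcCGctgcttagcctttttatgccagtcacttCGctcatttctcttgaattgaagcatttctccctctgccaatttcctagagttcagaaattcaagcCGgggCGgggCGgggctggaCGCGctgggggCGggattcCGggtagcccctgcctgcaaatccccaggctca
Ppp1r1b: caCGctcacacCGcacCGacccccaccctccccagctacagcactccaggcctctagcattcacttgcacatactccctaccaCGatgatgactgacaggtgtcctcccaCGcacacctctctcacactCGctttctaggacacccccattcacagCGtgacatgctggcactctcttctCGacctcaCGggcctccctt

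Over the whole 2000 bp promoter (1500 bp upstream to 500 bp downstream of the listed start), Drd2 held 106 CG and Drd5 100, Ppp1r1b 63, Drd1 and Drd4 61 each, and Drd3 only 17. The median of the 24391 listed promoters was 58, and 8.15% of them had 17 or fewer. MspI sites numbered 18 at Drd2, 8 at Drd5, 7 each at Drd1, Drd4 and Ppp1r1b, and 3 at Drd3, against a median of 6. The equivalent 2000 bp around the RefSeq start of Taar1 (chr10:23920406-23921404) held 17 CG and 1 MspI site, and its single-exon coding region held no MspI site and 1 TaqI site.

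Methylation of the listed promoters followed that division in saline mice, with the listed Drd3 promoter lying inside the longer annotated gene. In order, the saline means were 0.893% ± 1.15 (SD, n = 6) at Drd1, 2.55% ± 1.73 at Drd2, 2.68% ± 3.42 at Ppp1r1b, 6.45% ± 2.76 at Drd5, 7.94% ± 8.74 at Drd4 and 81.3% ± 18.6 at Drd3. Neighbours in this order had overlapping ranges except the last pair, since the highest saline mouse at Drd4 reached 16.7% and the lowest at Drd3 was at 50%. Among all listed promoters, those with 0 to 19 CG had a median of 84.2% in saline mice (2571 promoters). Those with 60 to 79 CG had 3.33% (4028 promoters) and those with 100 or more 2.30% (4427 promoters). Each member lay on the methylated or unmethylated side of its CG class. Drd5 was above the upper quartile of its class, 3.86%, and Drd1 below the lower quartile of its class, 1.67%.

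**Figure D1:**
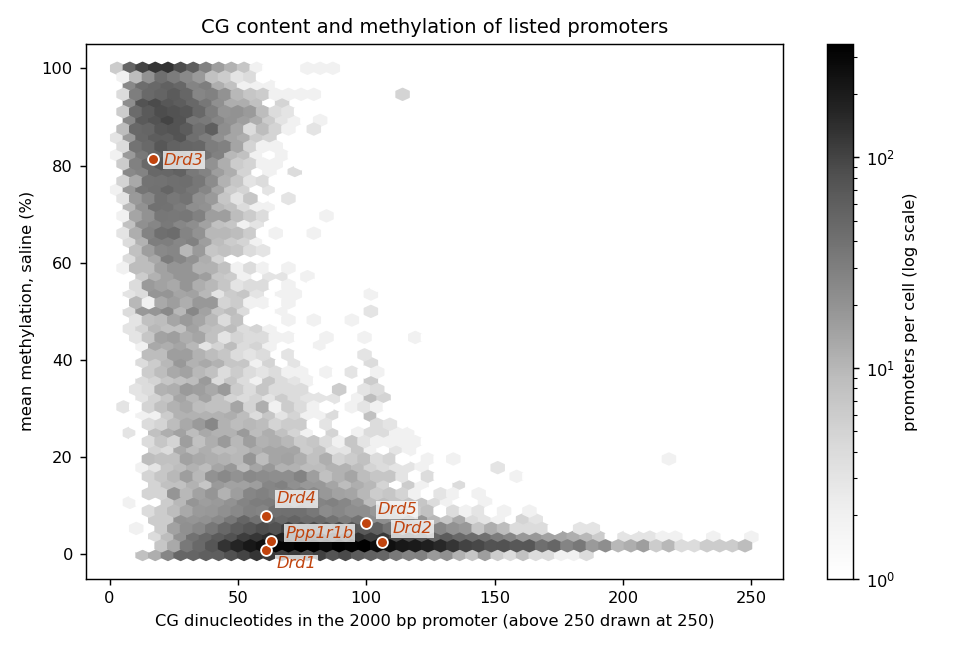
CG dinucleotides in each listed 2000 bp promoter (x axis, counted in GRCm38) against its mean methylation in saline mice (y axis, %), with the number of promoters per cell in grey on a log scale and the 6 members as orange points. Drd3, with 17 CG, sits at 81.3% among the CpG-poor methylated promoters, although its listed promoter lies inside the longer annotated gene. The other members sit between 0.893% and 7.94%.

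The annotation also sets Drd3 apart. Its listed start lies 8195 bp downstream of the GENCODE vM21 start of the gene, so that the region called its promoter (chr16:43760721-43762720) is 84.8% intron and 15.2% coding exon of the longer transcript. For the other members the starts differed by at most 142 bp. The window that holds the GENCODE start of Drd3 (chr16:43750001-43755000) was at 58.2% ± 17.8 (SD, n = 5) in amphetamine-treated and 69.4% ± 15.7 (SD, n = 6) in saline mice, so the upstream start did not lie in an unmethylated window either.

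The first comparison asked whether prenatal amphetamine altered methylation of these genes. None of the 39 regions passed the threshold of an adjusted p under 0.05 (limma's moderated test on the group means and SDs, two-sided, Benjamini-Hochberg adjusted over all regions of a class). Across all regions of each class the test called 0.0164% of promoters, 0.0116% of genes, 0.0135% of CpG islands and 0.0185% of windows. At an unadjusted p under 0.05 it singled out 2 member regions, the Ppp1r1b gene and 1 window of Drd3, both lower after amphetamine. The background at that threshold was 4.11% of promoters, 4.38% of genes, 4.10% of islands and 4.40% of windows, and with lower values after amphetamine 2.33% of genes and 2.59% of windows. Of the 39 differences 21 were above 0, as were 48.6% of all promoters, 47.9% of genes, 48.7% of islands and 48.0% of windows. In 1 of the 35 member regions with reads in all mice the groups did not overlap, against 0.395% of promoters, 0.312% of genes, 0.443% of islands and 0.351% of windows. Promoter, island and start window of one gene share CpGs and are not independent. The tables give each group's mean, SD, lowest and highest mouse but no values per mouse, so these stand for the individual values throughout.

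Of the D1-class receptors, Drd1 (chr13:54051186-54055658) was read most directly at its promoter, which ran from 0% to 22.7% in the amphetamine group (mean 6.97% ± 9.41, SD, n = 5) and from 0% to 2.50% in the saline group (0.893% ± 1.15, n = 6). The difference was 6.08 percentage points with a 95% confidence interval from -2.16 to 14.3 (adjusted p = 0.958). The mouse at 22.7% was an amphetamine-treated female, since the same highest value stands in the female column, and without it the difference was 2.15 points. The CpG island (chr13:54055107-54055780) and the window over the start gave identical means and ranges, so the 3 regions rest on the same reads. Coverage at the promoter, as the tables list it for each group, averaged 131.4 and 80.5. The sources do not say whether coverage sums reads over the CpGs of a region.

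Across the whole Drd1 gene methylation was 39.8% ± 14.0 (SD, n = 5) after amphetamine and 37.4% ± 5.28 (n = 6) after saline, with one amphetamine-treated male at 16.7% and one at 52.9%, so the treated range enclosed the saline range. The window over the 3' part of the gene (chr13:54050001-54055000), by contrast with the island, was methylated at 74.97% ± 19.5 and 82.6% ± 14.6.

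Drd5 (chr5:38319509-38322310), an intronless gene, went from an unmethylated start to a methylated body. Its promoter was at 4.15% ± 1.56 (SD, n = 5) after amphetamine, with mice from 2.20% to 6.25%, and at 6.45% ± 2.76 (n = 6) after saline, from 3.41% to 10.3%. Treated mice were lower on average, and the ranges overlapped from 3.41% to 6.25% (difference -2.30 points, 95% confidence interval from -5.40 to 0.812, adjusted p = 0.958). The island (chr5:38319241-38319927) was at 0.664% ± 1.24 and 3.33% ± 3.30, and 1 saline male reached 8.60%. The gene, 51.2% coding sequence, was at 64.5% ± 5.54 and 61.7% ± 5.39, and the window downstream of the island (chr5:38320001-38325000) at 85.2% ± 4.92 and 81.0% ± 4.72. The window over the start was at 9.59% ± 3.19 and 12.0% ± 4.44. Thus the promoter side was lower and the gene side higher after amphetamine, all with overlapping ranges and intervals that include 0.

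Among the D2-class genes, Drd2 (chr9:49340662-49407214), which encodes the main inhibitory autoreceptor, kept a largely unmethylated start. Its promoter was at 3.67% ± 2.44 (SD, n = 5), from 1.13% to 6.78%, after amphetamine and at 2.55% ± 1.73 (n = 6), from 0.455% to 5.72%, after saline. With a mean coverage of 507.4 and 458.5 it was the most deeply read of the member promoters, and its interval was the narrowest, from -1.70 to 3.95 points around a difference of 1.13 (adjusted p = 0.958). The island (chr9:49340313-49340960) was at 3.86% ± 2.62 and 2.32% ± 1.73. The gene was at 29.0% ± 9.73 and 25.9% ± 6.92.

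Inside the 66553 bp of Drd2 the window over the start stayed at 7.03% ± 3.18 (SD, n = 5) and 4.81% ± 2.76 (n = 6). The most methylated window in saline mice, at 61838 bp from the start to its centre, was at 92.4% ± 6.00 there, and at 73.0% ± 41.7 in the amphetamine group, where 1 female was listed at 0% and the highest at 100%. The lowest coverage of an amphetamine-treated mouse in that window was 11. Without the mouse at 0% the difference went from -19.5 to -1.21 points. Intronic windows of Drd2 were thinly read, and 1 of them had reads in only 4 amphetamine-treated and 3 saline mice. Only 5 windows were listed for Drd2, so parts of the gene have no value.

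Drd3 (chr16:43762221-43822932), a receptor with high dopamine affinity, was methylated at its listed promoter and, on average, over the gene. The listed promoter was at 94.6% ± 9.19 (SD, n = 5) after amphetamine, from 78.8% to 100%, and at 81.3% ± 18.6 (n = 6) after saline, from 50% to 100%. Treated mice lay in the upper part of the saline range (difference 13.3 points, 95% confidence interval from -6.31 to 32.9, adjusted p = 0.958), and 1 treated mouse had a coverage of only 5. Over the gene the groups were nearly equal, 72.7% ± 5.84 against 73.1% ± 6.79, with an interval from -8.59 to 7.91 points at a mean coverage of 1367 and 952.5.

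The 8 listed windows along Drd3 were not uniform, and parts of the gene had no listed window. The window over the listed start was at 84.6% ± 8.99 (SD, n = 5) and 74.0% ± 13.4 (n = 6). In saline mice the highest window was centred 50279 bp from the start at 92.1% ± 2.36 (90.5% ± 7.75 after amphetamine) and the lowest 40279 bp from it at 28.4% ± 24.6 (26.8% ± 16.2 after amphetamine). That intronic window held 81 CG, more than any other listed window of the gene. The treated and saline ranges there ran from 4.17% to 45.5% and from 0% to 62.5%. The fully intronic window centred at 10279 bp (chr16:43770001-43775000) was the one with an unadjusted p under 0.05. It was at 82.2% ± 3.0 after amphetamine, from 79.2% to 87.0%, and at 89.1% ± 5.53 after saline, from 79.8% to 96.8%. The difference was -6.90 points (95% confidence interval from -13.3 to -0.547, limma unadjusted p = 0.0361, adjusted p = 0.965), and the ranges overlapped over most of the treated group. The largest difference of the 39 regions went the other way, in the window centred at 25279 bp (chr16:43785001-43790000), also fully intronic. It was at 83.4% ± 23.5 after amphetamine, from 50% to 100%, and at 47.7% ± 35.4 after saline, from 0% to 100%, so that the saline range enclosed the treated one. The difference was 35.6 points with an interval from -3.68 to 74.9 (adjusted p = 0.965) at a mean coverage of 39.2 and 58.8, and it stayed between 26.1 and 46.1 points without the lowest or highest mouse of either group.

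**Figure D2:**
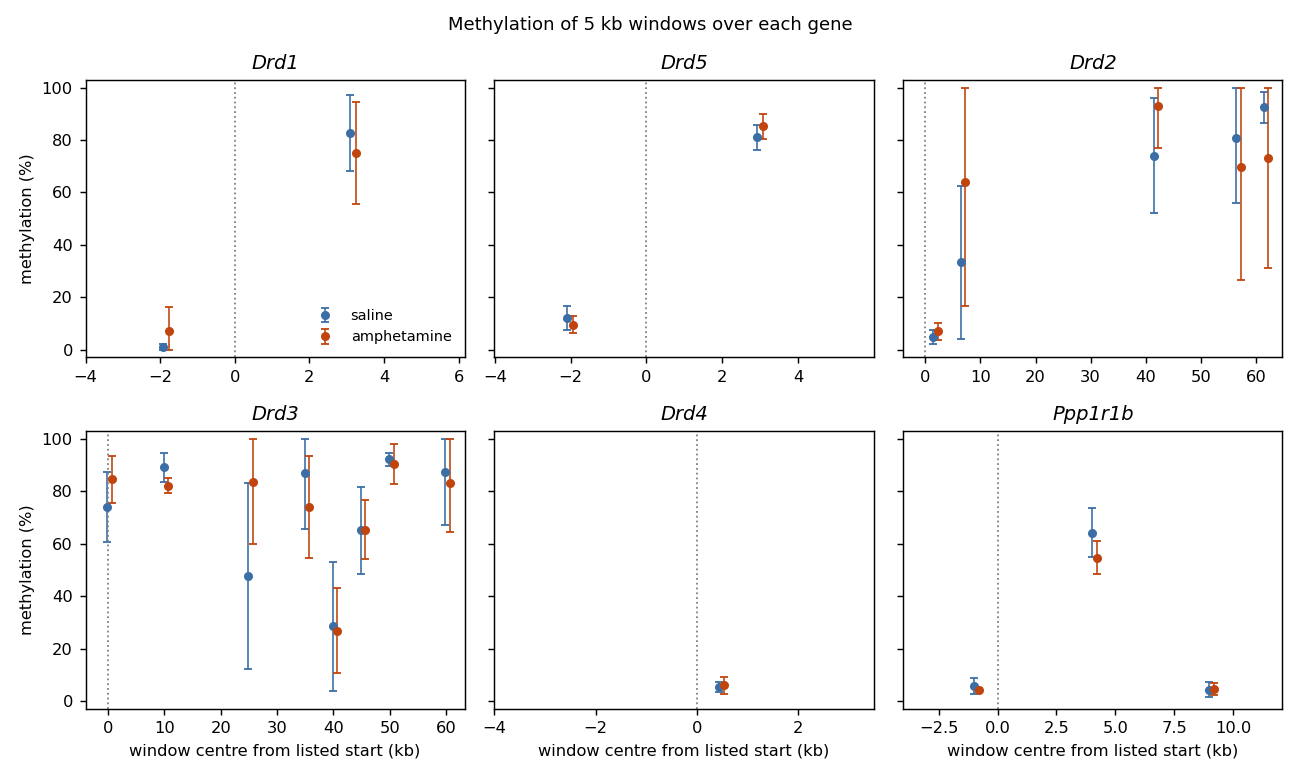
Mean methylation (y axis, %) of each 5000 bp window over a member against the distance of its centre from the listed start (x axis, kb), in saline (blue) and amphetamine-treated (orange) mice, shifted slightly sideways. Bars are SDs over mice, ended at 0 and 100%, and dotted lines mark the start. Windows at the start are at or below 12.0% for every gene but Drd3, and the window 40279 bp into Drd3 falls to 28.4% and 26.8%.

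Drd4 (chr7:141292006-141294999) had the least methylated body of the members. The gene was at 3.95% ± 2.51 (SD, n = 5) and 4.05% ± 1.45 (n = 6), a difference of -0.103 points with an interval from -3.15 to 2.94, and the single window over it at 6.02% ± 3.24 and 5.33% ± 1.83. The gene's 150 CG in 2994 bp were the densest of the member genes. Its first island (chr7:141291934-141292381) was listed at 0% in every saline mouse. The coverage of that group summed to 234, and if it counts reads, which the sources do not state, 3 methylated reads of them would be 1.28%, the share a count of 0 allows by counting error alone. In the amphetamine group it was at 4.00% ± 8.94, which came from 1 male at 20.0%. The second island (chr7:141293743-141294185), 80.4% coding exon, was at 1.73% ± 2.41 against 0.0403% ± 0.0986. By contrast the promoter was at 16.4% ± 12.0, from 0% to 33.3%, after amphetamine and at 7.94% ± 8.74, from 0% to 16.7%, after saline. The saline range lay inside the treated range (difference 8.44 points, interval from -4.96 to 21.8, adjusted p = 0.958), and mean coverage was low, 48.4 and 42.5. The first island lies inside this promoter and alone had a mean coverage of 35 and 39. With the island at 0% in saline mice, the promoter's higher value came from CpGs outside it. If coverage sums reads over CpGs, which the sources do not state, few reads lay there. Beyond the listed gene, the next window (chr7:141295001-141300000), into which the GENCODE model of Drd4 extends, was at 92.9% ± 2.66 and 88.6% ± 4.23.

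Ppp1r1b (chr11:98348404-98357796) was the one member with a region whose groups did not overlap. Across the gene the amphetamine-treated mice lay from 16.4% to 22.0% (mean 19.5% ± 2.44, SD, n = 5) and the saline mice from 22.1% to 24.5% (23.5% ± 0.997, n = 6). Every treated mouse was below every saline mouse, with a gap of 0.111 points between the nearest. The difference was -3.97 points (95% confidence interval from -6.81 to -1.14, limma unadjusted p = 0.0107, adjusted p = 0.984). Over all genes with reads in all mice 0.312% did not overlap, and 0.164% did so with lower values after amphetamine. Without the lowest or highest mouse of either group the difference stayed between -4.59 and -3.20 points.

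Within Ppp1r1b the methylated stretch was the middle of the gene. The window centred 4096 bp from the start (chr11:98350001-98355000), 78.8% intron, was at 54.7% ± 6.28 (SD, n = 5), from 47.3% to 64.0%, after amphetamine and at 64.2% ± 9.19 (n = 6), from 55.5% to 78.8%, after saline. Its difference of -9.54 points had an interval from -20.1 to 1.01 (adjusted p = 0.965), and the 2 ranges overlapped. The promoter was at 1.15% ± 1.17 and 2.68% ± 3.42, the island (chr11:98348384-98349199) at 0.827% ± 0.800 and 1.54% ± 1.87, and the window over the upstream side and start at 4.06% ± 0.814 and 5.66% ± 3.05. At the 3' side the window from chr11:98355001-98360000, which also holds the start of the neighbouring gene Stard3, was at 4.43% ± 2.24 and 4.30% ± 2.99. Mean coverage of the gene was 974.6 and 722.0. Summed over all genes, mean coverage was 1.24 times higher in the amphetamine group. The gene overlaps the noncoding 1700003D09Rik, and the value does not separate their CpGs.

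**Figure D3:**
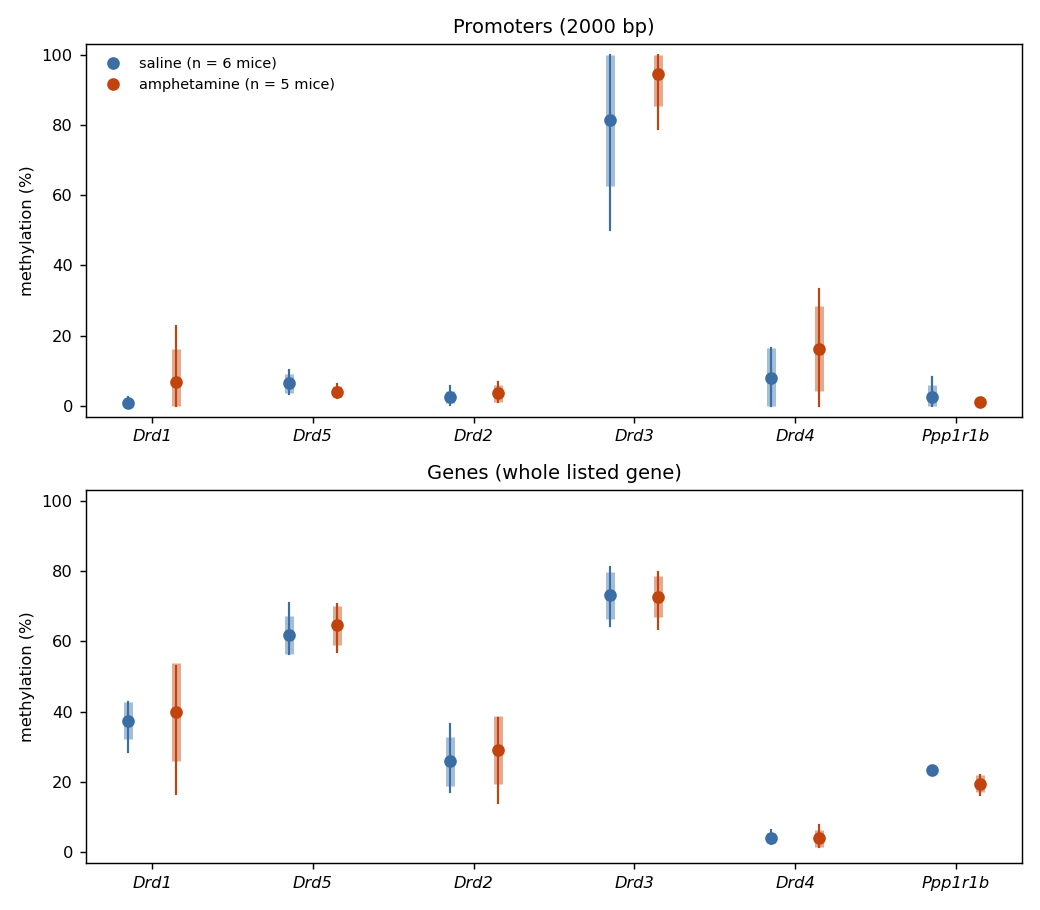
Methylation (y axis, %) of the 6 listed promoters (top) and genes (bottom), D1 class first, then D2 class and Ppp1r1b, in saline (blue, n = 6) and amphetamine-treated (orange, n = 5) mice. Points are means, thick bars SDs ended at 0 and 100%, and thin lines run from the lowest to the highest mouse. The thin lines overlap for each pair except the Ppp1r1b gene, at 19.5% and 23.5%.

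The second comparison set females against males over the same mice. Again no member region passed the adjusted threshold in limma, where it called 0.564% of all promoters, 0.373% of genes, 1.09% of CpG islands and 0.0760% of windows, most of them on the X and Y chromosomes, which hold none of the members (126 of the 137 promoters called, 85 of 96 genes, 145 of 161 islands and 109 of 196 windows). At an unadjusted p under 0.05 there were 3 member regions, 2 genes and 1 window, beside 6.07% of all promoters, 6.50% of genes, 6.65% of islands and 5.59% of windows. No member region separated the sexes completely, which 1.55% of promoters, 1.03% of genes, 1.91% of islands and 0.626% of windows did.

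The Drd5 gene was at 59.6% ± 3.65 (SD, n = 6) in females, from 56.4% to 65.4%, and at 67.1% ± 4.20 (n = 5) in males, from 62.2% to 71.0%. Males were higher on average and the ranges overlapped between 62.2% and 65.4% (difference -7.48 points, 95% confidence interval from -12.7 to -2.26, limma unadjusted p = 0.00947, adjusted p = 0.483). The window downstream of its island was at 80.8% ± 3.88 and 85.4% ± 5.51, while the promoter was nearly equal, 5.35% ± 2.48 and 5.46% ± 2.80. At the Drd3 gene females were at 76.0% ± 5.02, from 69.0% to 81.3%, and males at 69.2% ± 5.36, from 63.5% to 74.9% (difference 6.80 points, interval from 0.0487 to 13.6, adjusted p = 0.767). Its window centred at 35279 bp was at 91.0% ± 10.1 in 6 females and 65.0% ± 23.8 in the 4 males with reads, but the mean coverage was 4.50 and 4.20 (adjusted p = 0.870). At the highest window of Drd3 the means were 94.1% ± 2.49 and 88.1% ± 6.03. Differences at the 6 promoters ran from -1.98 points at Drd4 to 4.30 at Drd1, the latter again with the female at 22.7%.

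**Figure D4:**
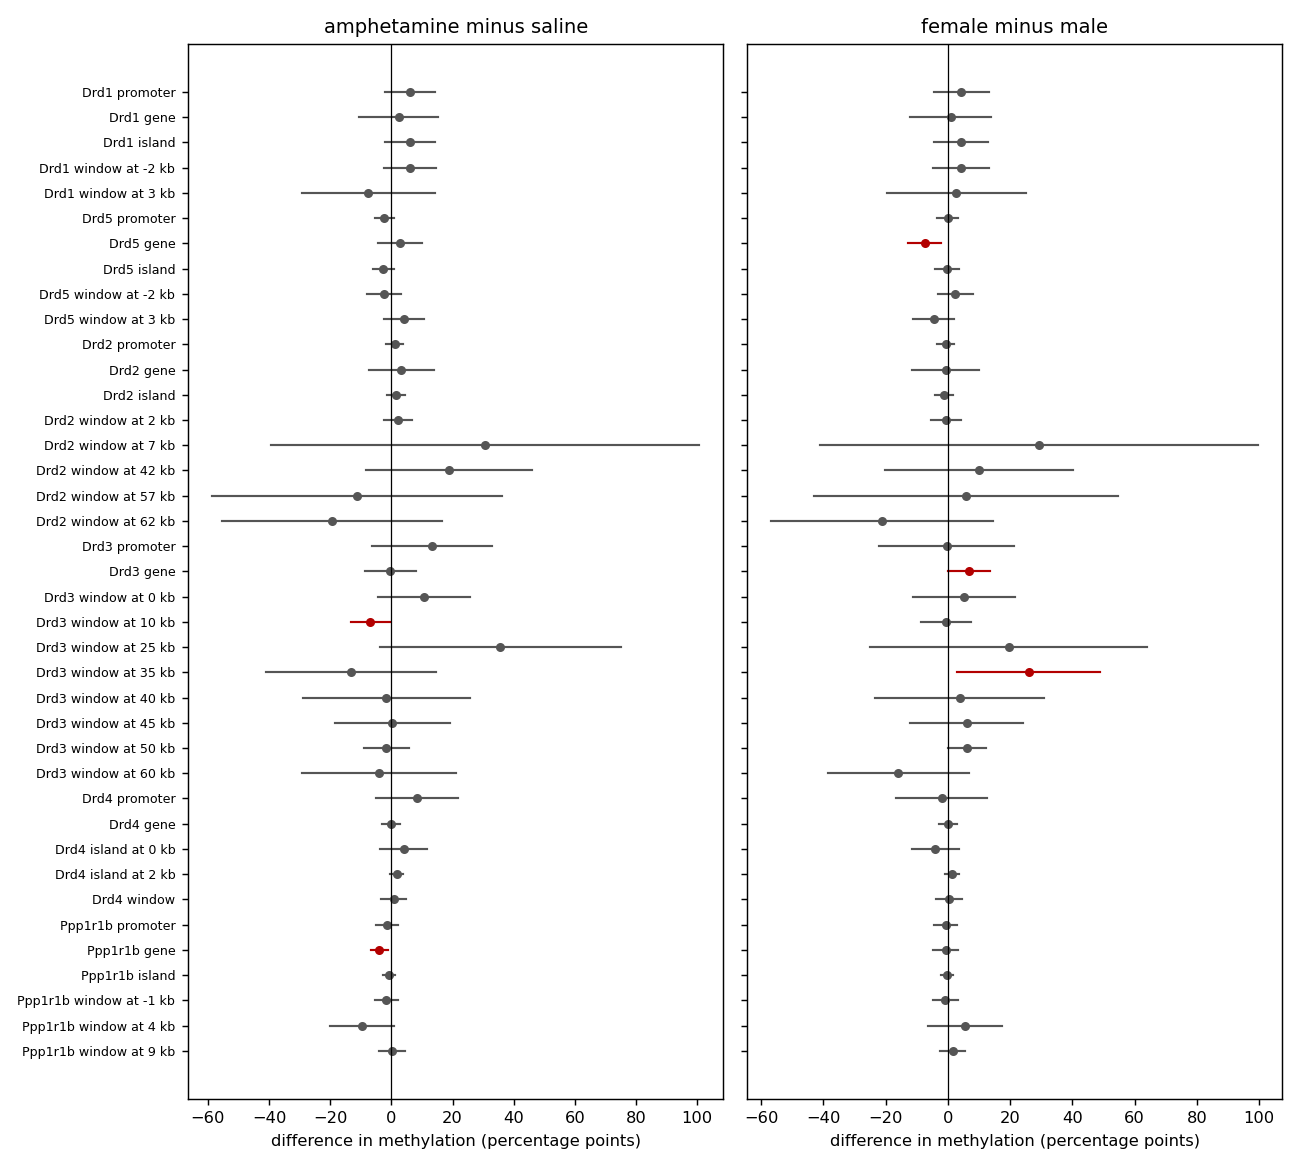
Differences in methylation (x axis, percentage points) with 95% confidence intervals for the 39 member regions, amphetamine minus saline (left) and female minus male (right). Islands and windows of a gene are labelled by the distance of their centre from the start where there are several, and regions with an unadjusted p under 0.05 are red. The widest intervals belong to windows inside Drd2 and Drd3, and no region passed after adjustment.

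Lists of other genes in the pathway were read beside the members: supply and removal of dopamine, receptor coupling and desensitisation, kinases and phosphatases around DARPP-32, and the other trace amine-associated receptors. Of their 49 promoters and 54 genes tested, none passed the adjusted threshold for amphetamine in limma, and 5 promoters and 1 gene had an unadjusted p under 0.05, where 4.11% of all promoters and 4.38% of all genes did.

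In the supply list, the promoter of Slc18a2, the vesicular monoamine transporter that loads dopamine into vesicles and is a target of amphetamine, was at 4.13% ± 0.646 (SD, n = 5) after amphetamine, from 3.16% to 4.63%, and at 0.224% ± 0.369 (n = 6) after saline, from 0% to 0.870%. All treated mice lay above all saline mice at this low level (difference 3.91 points, adjusted p = 0.0591 by limma). The adjusted p ranged from 0.00762 to 0.448 over the other settings, so that the call depends on the setting. It was the only one of 44 pathway promoters with reads in all mice whose groups did not overlap, against 0.395% of all promoters. Over the 11 gene bodies of that list 10 were lower after amphetamine, beside 51.1% of all genes. Their median difference was -4.32 points against -0.0862 over all genes, and none had an unadjusted p under 0.05 in limma. These genes were read in the same mice and are not independent, so the count does not measure a shift of the list. Of the coupling genes 9 were higher and 13 lower, and of the DARPP-32 genes 9 were higher and 9 lower. Of the 8 promoters of the list 4 were higher and 4 lower, with a median difference of 0.176 points. The gene closest to the threshold was Maob, which breaks down dopamine, at 79.96% and 85.4%.

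The coupling list held 20 promoters and 22 genes. The listed promoter of Gnas had the largest difference of that list. Gnas is an imprinted locus encoding the stimulatory G protein subunit used by D1-class receptors in most tissues. Whether the listed promoter is the one that drives this subunit was not examined. The listed promoter was at 38.2% ± 16.7 (SD, n = 5) against 71.7% ± 7.31 (n = 6), with treated mice from 15.6% to 60.2% and saline mice from 59.98% to 79.3%. The ranges touched by less than 1 point (difference -33.4 points, adjusted p = 0.702 by limma). Over the Gnas gene the means were 38.9% ± 1.67 and 40.3% ± 3.38, a difference of -1.37 points (adjusted p = 0.985). The promoter of Gnal, the stimulatory subunit of striatum, was at 5.31% ± 1.99 and 8.25% ± 1.63. For the list as a whole the median promoter difference was -0.156 points, beside 0 for all promoters.

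Among 17 promoters of the DARPP-32 list, Ppp1ca, a catalytic subunit of the protein phosphatase 1 that DARPP-32 inhibits, was at 4.22% ± 1.43 (SD, n = 5) and 6.58% ± 1.32 (n = 6). Of the 18 genes, Ppp2r5d, a regulatory subunit of protein phosphatase 2A that acts on DARPP-32, was at 54.9% ± 5.64 and 43.6% ± 5.35, from 45.9% to 61.1% in treated and from 34.9% to 49.9% in saline mice, so most treated mice lay above the saline range (difference 11.2 points, adjusted p = 0.984 by limma). Median differences of this list were -0.413 points over promoters and -0.0390 over genes.

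Of 14 other trace amine-associated receptors, which are mostly olfactory, only 4 promoters and 3 genes were in the tables. They were mostly methylated, with saline means of 70.8% to 90.7% over the genes. Taar6 stood apart, its promoter at 80.7% ± 17.6 in the 4 treated mice with reads and at 11.4% ± 25.6 in the 5 saline mice with reads, where the highest reached 57.1% and the lowest treated mouse was at 61.1%. Mean coverage there was 16.0 and 11.2, and the adjusted p 0.710 by limma. By sex, the same promoter was at 63.7% ± 39.3 in the 5 females and 15.3% ± 30.6 in the 4 males with reads. The part of sex in the treatment difference was not tested.

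For likeness, the 2 promoters nearest to each member were found over the 4 group means (amphetamine, saline, female and male) among 54 pathway genes and members, as a description. Ppp1r1b lay 0.758 points from Cdk5r1 and 0.834 from Ppp2ca. Drd5 lay 0.982 points from Cdk5 and 1.005 from Ppp1ca. Cdk5 and Cdk5r1 encode parts of the kinase complex that phosphorylates DARPP-32, but Ppp2ca and Ppp1ca were nearly as near. These promoters lay between 2.25% and 6.58% in saline mice, where the median promoter of the DARPP-32 list was at 3.67%. Such distances therefore show shared low methylation and do not measure a shared function. Drd2 lay 1.49 points from Prkar1b and 1.66 from Adcy5. Drd1 lay 4.64 points from both Slc18a2 and Prkar2b. The methylated Drd3 had no close neighbour, with Taar4 at 11.4 points and Csnk2a1 at 14.8. Drd4 was 12.2 points from Slc6a3, the dopamine transporter, and 13.1 from Gnal.

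Summed over all promoters, mean coverage was 1.24 times higher in amphetamine-treated than in saline mice. Of all promoters 86.1% had reads in all mice, and the median coverage of Y chromosome promoters was 1.67 in females and 29.2 in males. In 6 lists of cell type markers (acinar, endocrine, blood, endothelial, mesenchymal and neuronal) none of 26 promoters and 34 genes passed for amphetamine in limma. At an unadjusted p under 0.05 stood the promoters of Ppy (13.2% against 0.758%) and Neurod1 (13.1% against 5.07%), both endocrine, and the endothelial gene Cdh5 (73.6% against 85.5%). Over all regions 4.11% of promoters and 4.38% of genes did so. Of 7 endocrine promoters 5 were higher and 2 lower after amphetamine, and of 7 endocrine genes 4 were higher and 3 lower. Of 5 endothelial genes 2 were higher and 3 lower. Other lists leaned one way: all 3 mesenchymal promoters were lower, and all 4 mesenchymal and all 3 blood genes higher. Of 5 neuronal genes 4 were higher, and of 10 acinar genes 6 were higher and 4 lower. The part of cell types in the values above was not tested, and methylation of a marker does not measure how many cells of a type were present.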

How the data were processed

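Genomic DNA was cut by MspI and TaqI. Reads (single-end) were mapped by the authors with Bismark, run through NextFlow methylseq against mm10, and RnBeads gave the summary of CpGs for each region. The version of Bismark is not given in the sources used here. The 8 deposited tables (promoters, genes, CpG islands and windows, for treatment and for sex) hold, for each group, the methylation fraction that the authors averaged over mice with its SD, lowest and highest mouse, here multiplied to percent, the number of mice without reads and the coverage, a signal averaged by the authors over mice without depth normalization. Columns with the authors' own differences, quotients, p-values and ranks were not used. Values per mouse and depth per library were not analysed here, so precision is given by SDs over mice and coverage per region.

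From each group's mean, SD and number of mice, limma 3.58.1 (R 4.3.3) moderated the pooled variance over every region of a class with at least 2 mice with reads per group, with no covariate, and p-values were adjusted by Benjamini-Hochberg over the class. The function was tested on simulated data. Groups without overlap were read from the lowest and highest mice. Islands and windows count with 1 base of overlap. Leaving out the lowest or highest mouse of a group, which bounds the value without any 1 mouse, used the same summaries, and the mouse left out differs between regions. Other alternatives were a logit scale with an offset of 0.01, a mean coverage of at least 10, reads in all mice, no X or Y chromosome, an SD above 0 in both groups, a prior following the mean, overlap of at least 50%, and, chosen after seeing the data, gene ends from GENCODE vM21.

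Sequences and CG counts are from RefSeq GRCm38.p6, the assembly of mm10. All 21 chromosome names matched, and no window lay beyond a chromosome's end. Exons are from GENCODE vM21. Upstream sequences are printed for Drd1, Drd3, Drd4 and Ppp1r1b, and those of the other members are not reported here. All members are named, with promoter, gene, islands, the start window, the windows highest and lowest in saline mice and those with an unadjusted p under 0.05 in either comparison. Pathway genes are named where the unadjusted p for treatment was under 0.05. Maob and the Drd3 window at 25279 bp were named after their values were seen. Members, pathway lists and the 6 marker lists were chosen with earlier results of these data known. Python 3.11.15, numpy 2.4.6, pandas 2.3.3 and matplotlib 3.10.9 were used.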

Additional observations from a re-analysis of the deposited data

Results flagged for a closer look

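In 152 pairs of a group and a member region, the highest or lowest mouse could be placed far from the rest of its group, by Dixon's criterion at 95%, with certainty in 19 pairs over 15 regions, from the mean, SD, lowest and highest values alone. In 18 further pairs this was possible but not certain. Chance flags about 1 in 20 groups if values are normally distributed, and overlapping regions repeat the same mouse. At both Drd4 islands the flagged mouse stood apart because the rest of its group was listed without methylation. The 19 pairs can therefore not be set against that rate.

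At Drd1 the promoter, the island and the start window each had a female at 22.7%. At Drd2 the windows centred 41838, 56838 and 61838 bp from the start had a treated mouse at 64.4%, a male at 2.63%, and a treated female at 0% who is the lowest of both her groups. At Drd3 the promoter had a treated mouse at 78.8%, the windows centred at 35279 and 60279 bp a saline mouse at 50% and 47.1%, and the window at 50279 bp a male at 77.6%. The first Drd4 island had a treated male at 20.0%, highest of both his groups, and the second a saline mouse at 0.242% and a male at 0.585%. At Drd5 a male was highest at the promoter, 10.3%, and at the island, 8.60%, where a treated mouse at 2.87% also stood apart. At Ppp1r1b the window over the Stard3 start had a treated mouse at 0.494%. Coverage was low in some of these places, with a mean of 6.20 and 2.83 in the Drd3 window at 35279 bp and of 35 and 39 at the first Drd4 island. Whether these mice differ in cell makeup or library was not tested.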

How the results depend on the processing

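The absence of a call among the 39 member regions held under the logit scale, the coverage minimum, reads in all mice, no X or Y chromosome, an SD above 0, the prior following the mean, the lowest or highest mouse of a group left out, overlap of at least 50% and gene ends from GENCODE vM21. At an unadjusted p under 0.05 there were 2 for treatment and 3 for sex. Direction changed in no member region except when such a mouse was left out, in 10 regions for treatment and 18 for sex. For treatment, 95% confidence intervals reached 69.9 points to either side in windows, at the Drd2 window with a mean coverage of 8.80 and 11.8, and 19.6 in promoters, at Drd3 with 68.6 and 62.8. The part of depth in these widths was not tested. No paired analysis was possible because the labels give no pairing and the tables no values per mouse.

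Counts over all regions moved more. For treatment, promoters, genes, CpG islands and windows called were 4, 3, 2 and 48. They were 67, 25, 20 and 872 on the logit scale, 0, 0, 1 and 4 with a coverage of at least 10, 0, 0, 0 and 1 with reads in all mice, and 0 in each class with an SD above 0. With the prior following the mean, genes, islands and windows gave 5, 1 and 30. Leaving out the lowest or highest mouse of a group gave 6 to 22, 4 to 11, 1 to 4 and 114 to 256. For sex, the counts were 137, 96, 161 and 196, with 378, 172, 302 and 1758 on the logit scale and 3, 1, 1 and 72 without X and Y. Windows called for sex were 81 with a coverage of at least 10, 78 with reads in all mice and 46 with an SD above 0. Leaving out a mouse gave 97 to 260 promoters, 70 to 157 genes, 138 to 235 islands and 199 to 673 windows. The cause of these shifts was not tested.

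Differences in percentage points that changed sign when a mouse was left out are given as the lowest and highest. For amphetamine minus saline, these were the Drd1 gene (-0.837 to 8.23), the Drd3 window at 45279 bp (-3.55 to 4.46), the Drd4 window (-0.303 to 1.83), the Ppp1r1b window at 9096 bp (-0.599 to 1.11), the Drd3 gene (-2.06 to 1.97), the Drd4 gene (-1.05 to 0.515), the Drd2 window at 56838 bp (-21.6 to 5.61), the Drd3 window at 40279 bp (-7.34 to 5.16), the Drd3 window at 50279 bp (-3.22 to 1.54) and the Drd3 window at 60279 bp (-12.0 to 3.91). For female minus male, these were the Drd1 gene (-4.46 to 4.61), the Drd4 gene (-0.590 to 0.970), the Drd1 window at 3158 bp (-4.22 to 8.28), the Drd3 window at 40279 bp (-2.83 to 9.67), the Drd4 window (-0.603 to 1.53), the Drd3 promoter (-3.53 to 7.04), the Drd4 promoter (-5.20 to 3.13), the Drd5 promoter (-0.711 to 1.11), the Drd2 gene (-3.33 to 1.92), the Ppp1r1b gene (-1.74 to 0.224), the Drd5 island (-0.739 to 1.41), the Drd3 window at 10279 bp (-2.80 to 0.734), the Drd2 promoter (-1.52 to 0.0597), the Ppp1r1b promoter (-1.34 to 0.793), the Ppp1r1b island (-0.648 to 0.497), the Drd2 window at 1838 bp (-2.10 to 0.606), the Drd2 window at 41838 bp (-0.513 to 16.9) and the Drd2 window at 56838 bp (-17.2 to 15.3).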
